A study of Mus musculus with 12 samples.

Results

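The genes described here are 10 secreted regulators of blood and lymph vessels that adipocytes can make, namely Vegfa, Vegfb, Vegfc, Vegfd, Angpt1, Angpt2, Ccbe1, Jag1, Thbs1 and Thbs2. They were taken by gene symbol from the 48321 genes listed in the normalised expression matrix. All 10 were found, 9 under the symbol used here and Vegfd under its older symbol Figf, and all 10 passed the filter on low counts. The cells were SV40 large T-immortalised brown preadipocytes of wild-type (WT) C57BL/6J origin, derived from interscapular brown fat, and the study's methods give 1 newborn mouse as their source. They had been transduced with lentivirus carrying either the empty pLEX vector or Flag-tagged tSema4B, a truncated soluble form of semaphorin 4B that stands for its shed ectodomain. Both lines had been selected with puromycin. The cells of all 4 groups were induced to differentiate with IBMX, rosiglitazone, dexamethasone, insulin and T3, kept in insulin and T3, and used on day 8. They then spent 6 h in serum-free medium with albumin, either unstimulated or with 2 μM norepinephrine (NE). Each of the 4 groups (vector unstimulated, vector NE, tSema4B unstimulated, tSema4B NE) has 3 libraries, which the series description calls technical replicates. A single line stood for each construct. A difference between tSema4B and vector is therefore a difference between these lines, and the p-values cover only the spread between these libraries.

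Fat is a vascular tissue, and brown adipocytes depend on blood flow for oxygen, for fuel and to carry heat away. VEGF-A and VEGF-B act on blood vessel endothelium through the receptors VEGFR1 (Flt1) and, for VEGF-A, VEGFR2 (Kdr). VEGF-C and VEGF-D act mainly on lymphatic endothelium through VEGFR3 (Flt4), and CCBE1 helps the protease ADAMTS3 to cut VEGF-C into its active form. Angiopoietin-1 activates the endothelial receptor Tie2 (Tek) and steadies vessels, and angiopoietin-2 is a ligand of the same receptor that often opposes it. JAG1 is a membrane ligand of Notch receptors whose ectodomain can be shed, and thrombospondin-1 and thrombospondin-2 are matrix proteins that restrain vessel growth. In whole fat, norepinephrine and cold are known inducers of VEGF-A.

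Reads counted on genes lay between 2000780 and 5409583 per library, the vector NE libraries being the deepest (4739777 to 5409583) and the unstimulated tSema4B libraries the shallowest (2000780 to 2541747). Sema4b itself took 2.04% to 4.02% of reads in the vector libraries and 7.01% to 10.2% in the tSema4B libraries, with endogenous and transduced transcripts counted together. As a check of the stimulus, 4 of 8 NE-responsive genes tested rose in vector cells and 2, Crem and Ucp1, in tSema4B cells. Crem, an early cAMP target, rose with NE in vector cells (log2 fold change 1.69, SE 0.20) and in tSema4B cells (1.40, SE 0.20). Ucp1, the heat-producing uncoupling protein, was at 9.25 to 15.2 normalised counts in unstimulated vector cells and at 267.8 to 293.0 after NE. In tSema4B cells Ucp1 had no read without NE and 60.8 to 66.5 normalised counts with it. Nr4a1, an immediate early gene, rose by 1.71 on the log2 scale in vector cells (SE 0.36, adjusted p = 0.00338), beside -0.17 in tSema4B cells (adjusted p = 0.850). Pde4d, a cAMP phosphodiesterase, rose by 1.81 in vector cells (adjusted p = 4.23e-04), beside 0.90 in tSema4B cells (adjusted p = 0.0869). Per1, Ppargc1a, Fos and Sik1 were called for NE in neither line, and Dio2 had no read. Mean Ppargc1a was lower with NE in both lines (20.8 and 13.5 in vector, 32.8 and 18.3 in tSema4B cells). Mean Sik1 was higher with NE in vector cells (16.5 and 32.3) and lower in tSema4B cells (42.1 and 23.6), and mean Per1 was higher in both lines. Of 12 brown adipocyte markers tested, 11 were lower in tSema4B than in vector cells in each condition. Their summed level was 40628 to 46349 in unstimulated vector libraries and 6754 to 9567 in unstimulated tSema4B libraries. Preadipocyte and fibroblast markers were higher in tSema4B for 7 of 11 genes without NE and for 8 of 11 with it. NE lowered 5 of these 11 and raised 1 in each line, and the 6 called in tSema4B cells became 3 without tSema4B NE replicate 2. Among them, the Cd34 call in tSema4B cells was lost in 18 of 24 alternatives. Mitochondrially encoded genes took 13.4% to 16.7% of reads in vector libraries and 6.91% to 7.89% in tSema4B libraries. The part of these shifts in the differences between lines reported below was not tested. In such bulk samples, fewer cells of a type and less RNA per cell cannot be told apart.

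The vessel regulators divided by line and by stimulus. In unstimulated cells, Vegfc, Ccbe1, Thbs1 and Thbs2 were higher in tSema4B than in vector cells and Angpt1 was lower, 5 of 10 genes at an adjusted p of 0.05 or less (limma, Benjamini-Hochberg over 11998 genes). Over all genes tested, 5.64% were higher and 7.39% lower in that comparison. After NE, Vegfc, Ccbe1 and Thbs2 were higher in tSema4B and Angpt2 and Jag1 were lower, against 9.79% of all genes higher and 11.2% lower. NE lowered Vegfd and Angpt1 in vector cells and raised none of the 10, against 6.82% of all genes higher and 4.78% lower. In tSema4B cells NE lowered Vegfd, Ccbe1, Jag1 and Thbs1 and again raised none, against 3.68% of all genes higher and 2.58% lower. The same shares over all genes apply to the counts of the other gene lists. The 10 genes and the lists were chosen with earlier results of these data known, so these shares give no test of an excess. The median log2 fold change of the 10 genes was -0.30 for NE in vector cells and -0.56 for NE in tSema4B cells, beside -0.02 and -0.00 over all genes. Between the lines it was 0.08 without NE and -0.01 with NE, since higher and lower members offset each other. None of the 10 passed the test of the interaction, the difference in NE response between the lines, which 0.025% of all genes passed (3 genes). Unadjusted p-values for it are given below for Jag1, Thbs1 and Angpt1, and none of these genes passed adjustment.

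**Figure D1:**
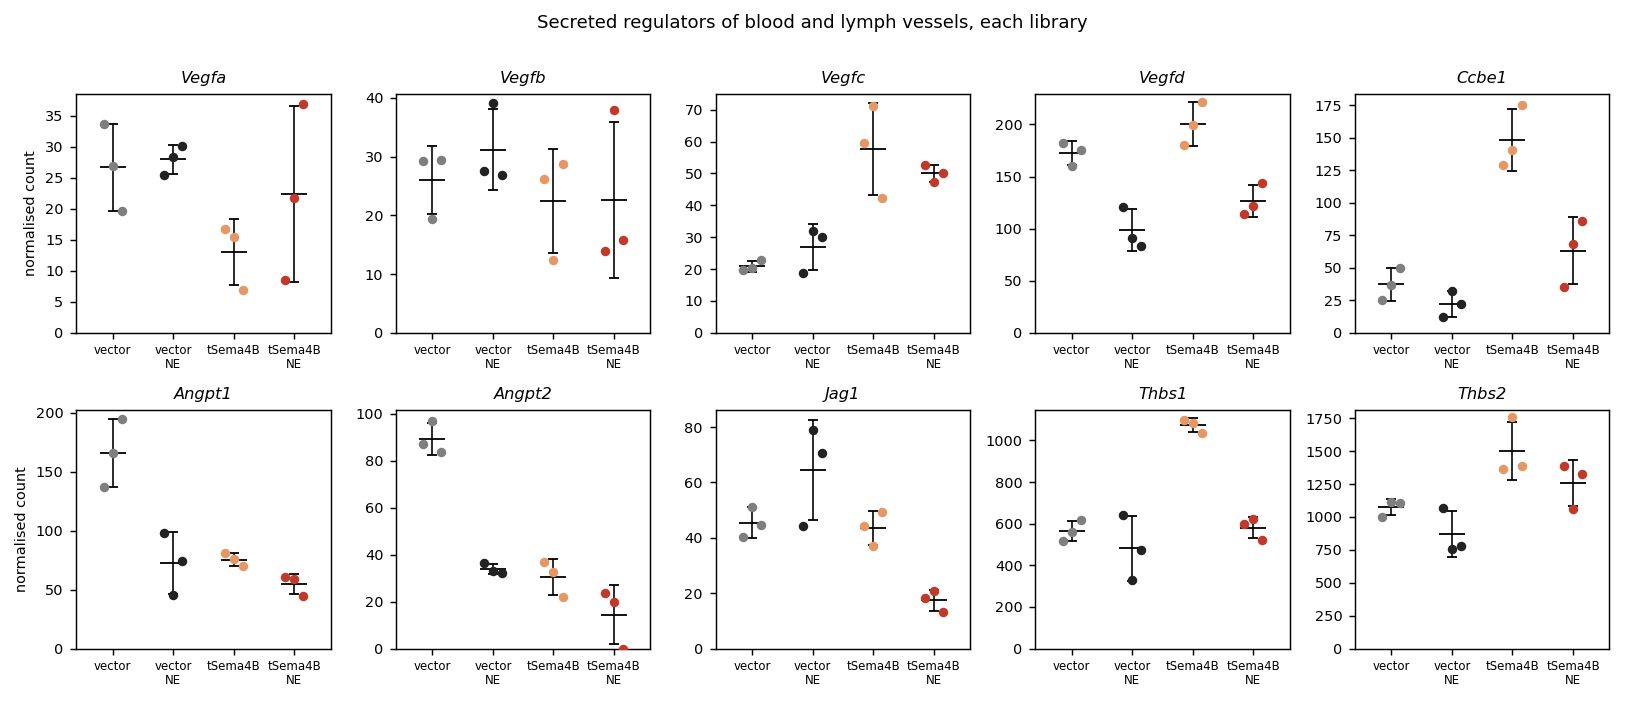
Normalised read counts of the 10 genes in each of the 12 libraries (linear axes from 0), with the 4 groups along the horizontal axis, a point for each library, and the mean and SD of 3 libraries as bar and whiskers. Vegfc and Ccbe1 lie higher in tSema4B, Angpt2 lies highest in unstimulated vector cells, and Jag1 is low only in tSema4B cells given NE (13.2 to 20.8).

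**Figure D2:**
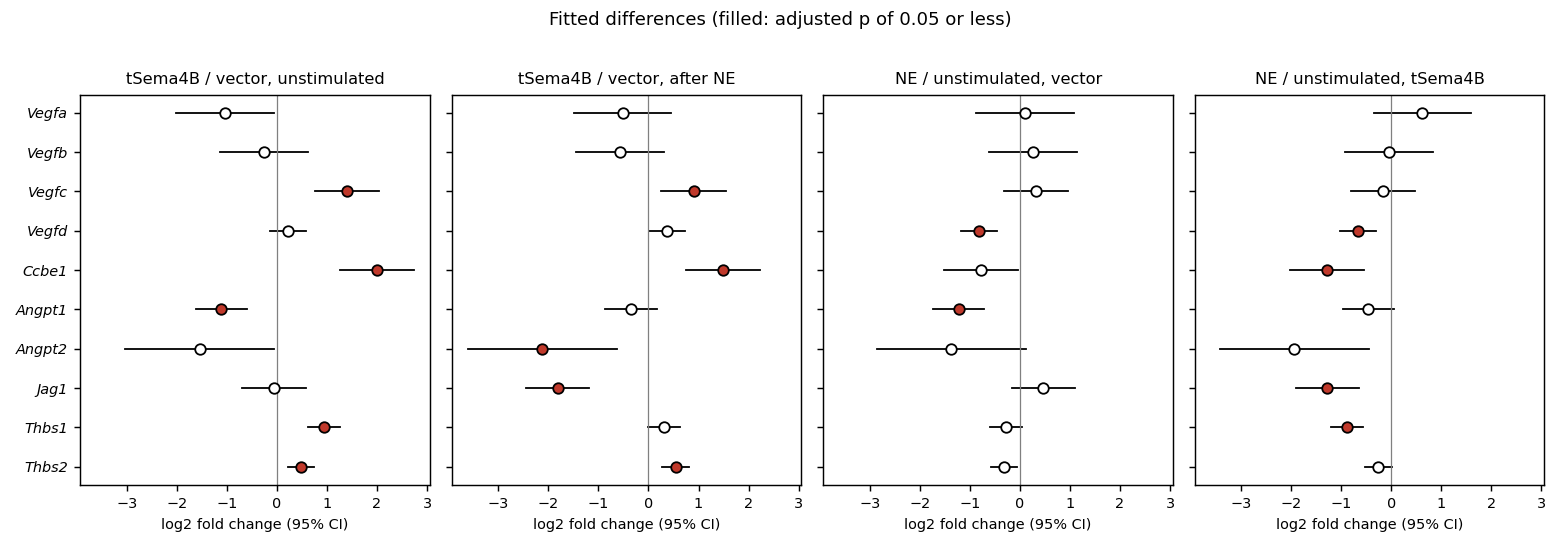
Fitted log2 fold change of each gene (horizontal axis, with 95% confidence interval) in the 4 comparisons, from limma on log2(normalised count + 1) over all 12 libraries. Filled points have an adjusted p of 0.05 or less, 5 genes in each comparison of the lines, 2 for NE in vector cells and 4 for NE in tSema4B cells.

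Sequence upstream of the RefSeq transcription start was available for 6 of the 10 genes, and it is shown for 4 whose level differed between groups. These are Vegfc and Thbs2, higher in tSema4B in both conditions, Vegfd, lowered by NE in both lines, and Jag1, lowered by NE in tSema4B cells. The bases are those of RefSeq on GRCm38.p6, read 5′ to 3′ on the strand of the gene. They begin 250 bases before the RefSeq start and stop where an exon annotated by GENCODE is reached. The Vegfd stretch therefore ends 145 bases before that start and the Jag1 stretch 125 bases before it. The nearer bases of Vegfd and Jag1 were neither shown nor searched. Capitals mark matches to any of 5 motifs searched on both strands: the cAMP response element TGACGTCA, its shorter form TGACG (which lies inside the full one), the AP-1 motif TGANTCA, the hypoxia response core ACGTG and the TATA box TATAAA.
Vegfc, chr8:54077282-54077531, plus strand: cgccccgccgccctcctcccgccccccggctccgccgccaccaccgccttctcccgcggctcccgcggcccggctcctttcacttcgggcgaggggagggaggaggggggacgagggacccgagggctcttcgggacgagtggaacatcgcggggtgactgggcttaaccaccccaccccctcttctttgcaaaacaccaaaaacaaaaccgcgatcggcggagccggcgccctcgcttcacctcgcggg
Thbs2, chr17:14694263-14694512, minus strand: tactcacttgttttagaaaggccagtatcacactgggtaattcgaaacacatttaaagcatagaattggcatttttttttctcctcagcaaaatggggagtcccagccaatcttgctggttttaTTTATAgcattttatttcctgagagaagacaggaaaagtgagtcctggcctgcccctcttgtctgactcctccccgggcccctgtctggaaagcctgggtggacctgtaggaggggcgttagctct
Vegfd, chrX:164373272-164373377, plus strand: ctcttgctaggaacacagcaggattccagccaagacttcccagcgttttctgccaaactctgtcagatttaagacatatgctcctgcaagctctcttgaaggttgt
Jag1, chr2:137116645-137116770, minus strand: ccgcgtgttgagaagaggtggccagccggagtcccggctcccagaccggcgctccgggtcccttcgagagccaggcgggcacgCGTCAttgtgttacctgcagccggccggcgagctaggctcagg
Jag1 held 1 match, to TGACG on the reverse strand, 163 to 167 bases before the RefSeq start; 6.89% of 32851 promoters held that motif in the same 126-base window. Thbs2 held 1 match, to TATAAA on the reverse strand, which 12.4% of promoters held in the same 250 bases. No match to the 5 motifs lay in the Vegfc and Vegfd stretches. The full TGACGTCA was found in 1.55% of the 250-base windows. TGANTCA lay in 6.75% of them and ACGTG in 16.6%. A match is a description of letters only, and nothing on binding was measured.

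Compared per length of exon, the thrombospondins were the most abundant of the 10 in each group. In unstimulated vector cells Thbs2 stood at 153 ± 8.77 normalised counts per kb (SD, n = 3), Thbs1 at 92.9 ± 8.22 and Vegfd at 71.6 ± 4.82, with no overlap of their libraries. Angpt1 (31.9 ± 5.58) and Angpt2 (24.2 ± 1.82) followed, then Vegfb (16.2 ± 3.61). Jag1 (7.79 ± 0.96) overlapped both Vegfc (8.52 ± 0.72) and Vegfa (6.24 ± 1.64), and Ccbe1 (3.45 ± 1.16) overlapped Vegfa. In tSema4B cells without NE the same 3 genes led, and Vegfc moved up to place 4 with 23.6 ± 5.90 per kb. Vegfa was then last, at 3.03 ± 1.25 per kb. The thrombospondins together held 73.3% to 85.8% of the summed normalised counts of the 10 genes in every library.

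**Figure D3:**
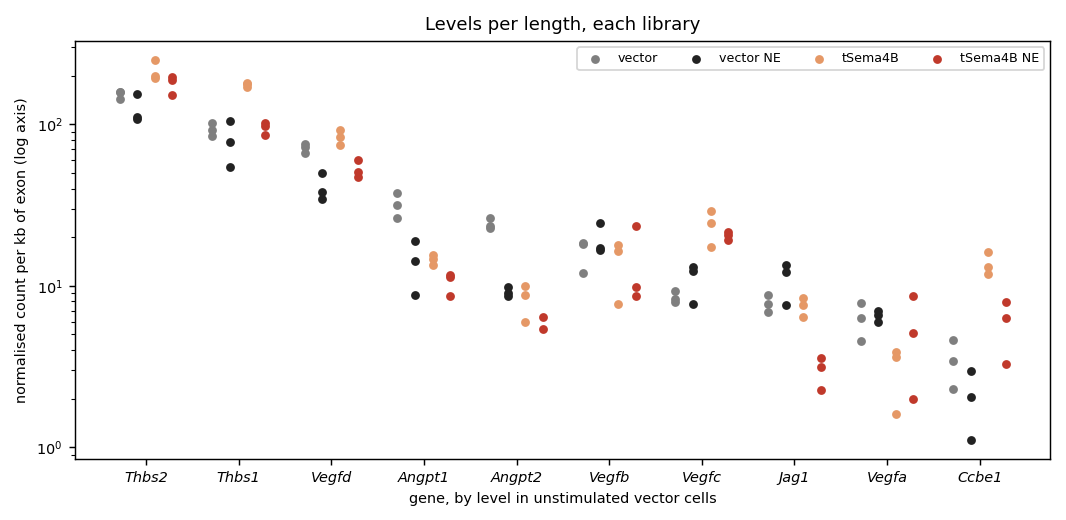
Normalised counts per kb of exon (vertical log axis) for each gene, ordered by its level in unstimulated vector cells, with a point for each library in 4 colours for the groups. Thbs2, Thbs1 and Vegfd lead in each group, the lymphatic factors Vegfc and Ccbe1 shift upward in tSema4B, and the single Angpt2 value of 0 (a tSema4B NE library) cannot be drawn on this axis.

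Vegfa, the main growth factor of blood vessel endothelium, was read 5 to 48 times per library and did not pass the test in any comparison. The gene lies on chromosome 17 from 46016993 to 46032369 (minus strand, GRCm38, GENCODE annotation as for all positions below). Its libraries 1, 2 and 3 held 33.7, 26.9 and 19.6 normalised counts in unstimulated vector cells and 25.5, 28.5 and 30.1 after NE. They held 16.7, 15.5 and 6.85 in unstimulated tSema4B cells and 8.58, 21.8 and 37.0 after NE. All 3 unstimulated tSema4B libraries lay below all 3 vector libraries, and after NE the lines overlapped. The fitted difference between unstimulated lines was -1.04 (SE 0.47, 95% CI -2.02 to -0.07, adjusted p = 0.158). NE changed the fitted level by 0.10 in vector cells (95% CI -0.88 to 1.07) and by 0.62 in tSema4B cells (95% CI -0.36 to 1.60). Both intervals include a rise of 1 on the log2 scale, and neither includes a fall of that size.

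Vegfb (chromosome 19, 6982473 to 6987651, minus strand), a VEGFR1 ligand linked to fatty acid handling, ranged from 12.4 to 39.1 normalised counts over the 12 libraries, and its 4 groups overlapped. Its largest fitted difference was -0.57 between the lines after NE (SE 0.42, adjusted p = 0.375). Pgf, which encodes placental growth factor, the remaining VEGFR1 ligand of the family, was at 16.4 ± 2.66 in unstimulated vector cells and at 9.24 ± 4.67 in tSema4B cells after NE. It too was called in no comparison. Among 21 tested regulators of Vegfa transcription, 4 rose and 1 fell with NE in vector cells, and 3 rose and 1 fell in tSema4B cells. Compared with vector, 1 was lower in tSema4B without NE, and 4 were lower and 1 higher with NE. Over all genes tested, 7.39% were lower without NE, and 11.2% were lower and 9.79% higher with NE. Hif1a, the oxygen-regulated subunit of HIF-1, rose by 0.57 on the log2 scale in vector cells (SE 0.11, adjusted p = 0.00204) and by 0.60 in tSema4B cells (SE 0.11, adjusted p = 0.00198). Stat3 rose by 0.71 and 0.51. Arnt2, a HIF partner read at most 32 times, fell from 19.1 ± 6.83 to 1.06 ± 0.361 normalised counts in vector cells and from 26.7 ± 17.5 to 3.57 ± 6.19 in tSema4B cells. Its call was lost without vector unstimulated replicate 2 in the former and without tSema4B unstimulated replicate 2 or tSema4B NE replicate 2 or 3 in the latter (adjusted p up to 0.0647 and 0.0777). Of 19 tested genes known to respond to hypoxia, 5 rose with NE in vector cells and 8 in tSema4B cells. These counts fell to 3 without vector unstimulated replicate 3 or vector NE replicate 3, and to 4 or 5 without replicate 1 or 3 of either tSema4B group. Between the lines, 7 of the 19 were lower and 2 higher in tSema4B without NE, and 8 lower and 3 higher with NE. Without vector unstimulated replicate 3 the Ndrg1, Vldlr and Higd1a calls between unstimulated lines were lost. Without vector NE replicate 1 those of Pdk1, Bnip3, Kdm3a and Vldlr after NE were lost. Ldha, which makes lactate from pyruvate, rose by 0.39 in vector and 0.87 in tSema4B cells. Slc2a1, a glucose carrier, rose by 0.69 and 0.75, calls lost without replicate 3 of either vector group, and without tSema4B unstimulated replicate 1 or 3 or tSema4B NE replicate 3 (adjusted p up to 0.0871 and 0.0605).

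Vegfc was higher in tSema4B cells. It is the main growth factor of lymphatic endothelium and lies on chromosome 8 from 54077606 to 54187096, with its upstream bases shown above. Normalised counts in replicates 1, 2 and 3 were 19.5, 20.2 and 22.9 in unstimulated vector cells and 18.8, 32.0 and 30.1 in vector cells given NE. The tSema4B libraries gave 59.6, 71.2 and 42.4 without NE and 52.5, 47.3 and 50.2 with NE. Each of the 6 tSema4B libraries exceeded each of the 6 vector libraries. The log2 fold change between unstimulated lines was 1.40 (SE 0.31, adjusted p = 0.00338), a ratio of means of 2.77. After NE it was 0.90 (SE 0.31, adjusted p = 0.0414). That second call was lost when any of the 6 NE libraries was left out, with adjusted p between 0.0514 and 0.195. It was also lost with reads thinned to the shallowest library (0.81, adjusted p = 0.0916), with rescaling over nuclear genes (0.85, adjusted p = 0.0529) and with no filter (adjusted p = 0.0816), whereas the unstimulated call held in all alternatives run (adjusted p 4.73e-04 to 0.0234). NE moved Vegfc by 0.32 in vector cells (95% CI -0.32 to 0.97) and by -0.17 in tSema4B cells (95% CI -0.81 to 0.47).

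Ccbe1, the secreted cofactor of VEGF-C cleavage, differed most of the 10 genes between the unstimulated lines. It spans 66045302 to 66302741 on the minus strand of chromosome 18 and shares 320 exon bases with Gm15958 on the opposite strand. Since the strand setting of the counting is not given in the sources used here, reads in those bases cannot be assigned. Libraries 1, 2 and 3 of unstimulated vector cells held 24.98, 37.0 and 50.1 normalised counts, against 129, 141 and 175 in unstimulated tSema4B cells. With NE the vector libraries held 12.1, 32.0 and 22.3 and the tSema4B libraries 35.4, 68.2 and 85.9. The lines did not overlap in either condition. tSema4B exceeded vector by 2.00 on the log2 scale without NE (SE 0.36, adjusted p = 4.09e-04) and by 1.48 with NE (SE 0.36, adjusted p = 0.00466). Both calls held in the 25 alternatives run. In tSema4B cells NE lowered Ccbe1 by 1.30 (SE 0.36, adjusted p = 0.0303), from 148 ± 24.1 to 63.1 ± 25.6. This call was lost without any of the 3 unstimulated tSema4B libraries or without tSema4B NE replicate 1 or 2 (adjusted p 0.0510 to 0.139). It was also lost with no filter on low counts (adjusted p = 0.0746). In vector cells the NE difference was -0.78 (adjusted p = 0.184), and the difference between the lines in NE response was -0.52 (95% CI -1.57 to 0.52).

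Vegfd, the second lymphatic VEGF, was lowered by NE in both lines. It lies on the X chromosome from 164373378 to 164402650. Vector cells held 182, 160 and 175 normalised counts in replicates 1, 2 and 3 without NE and 121, 91.3 and 83.2 with it. For tSema4B cells the values were 180.0, 199.6 and 222 without NE and 114, 122 and 144 with it. Every NE library lay below every unstimulated library of its line. The NE difference was -0.82 in vector cells (SE 0.17, adjusted p = 0.00320) and -0.66 in tSema4B cells (SE 0.17, adjusted p = 0.0231), and the responses of the lines differed by 0.16 (95% CI -0.35 to 0.67). In tSema4B cells the call was lost without unstimulated replicate 2 or 3 or without NE replicate 1 or 2 (adjusted p 0.0536 to 0.0860). It was also lost when only the 6 libraries of that line were fitted (adjusted p = 0.0650). Between the lines Vegfd differed by 0.21 without NE (95% CI -0.15 to 0.57) and by 0.37 with NE (adjusted p = 0.138).

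The proteases that act on VEGF-C and VEGF-D, and their receptors, were examined as well. ADAMTS3, the main VEGF-C protease with CCBE1, was barely read (6 reads at most). Of 9 enzymes listed, 7 were tested, and 2 of them were higher in tSema4B without and with NE. Adamts2, a procollagen peptidase related to ADAMTS3, was at 299 ± 59.4 in unstimulated vector and 542 ± 77.3 in unstimulated tSema4B cells (0.87 on the log2 scale, SE 0.15, adjusted p = 3.43e-04), and differed by 1.12 after NE. Plat, tissue plasminogen activator, was higher by 0.70 without NE (adjusted p = 0.00188) and 0.49 with NE (adjusted p = 0.0173). NE lowered Plat in both lines, by 0.73 in vector and 0.94 in tSema4B cells. The Plat call after NE was lost without vector NE replicate 1 or 2 or without tSema4B NE replicate 3 (adjusted p up to 0.113), and Adamts2 then remained as the 1 enzyme called. Plau, the related urokinase, was at 14.9 ± 1.19 and 39.9 ± 14.7 in the unstimulated lines (1.29 on the log2 scale, adjusted p = 0.0557). Furin, Pcsk7, Adamts14 and Ctsd passed no test between the lines, and Pcsk5 was read at most 7 times.

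Kdr, Tie1, Flt4 and Tek, receptors of the endothelium, were absent or nearly so, unlike Flt1 and Nrp1. Kdr and Tie1 had no read in any library, Flt4 had 1 read at most and Tek 6 at most. Among 15 markers of blood endothelium, 10 had 3 reads or fewer in every library, and Kdr, Tie1, Esam, Cldn5, Sox17 and Robo4 had none. Their summed level ran from 66.2 to 112 in unstimulated vector libraries and from 94.2 to 110 in unstimulated tSema4B libraries. After NE the sums were 67.2 to 83.8 and 102 to 133. Of the 4 blood endothelial markers tested (Pecam1, Plvap, Egfl7 and Eng), only Eng was lower in tSema4B without NE, and no other comparison called any. The Eng call was lost in 5 of 23 alternatives, among them 3 left-out libraries (adjusted p up to 0.0766). Of the lymphatic markers Prox1, Lyve1, Flt4, Pdpn, Ccl21a, Reln and Sox18, 5 of 7 had 3 reads or fewer and only Pdpn was tested. Pdpn, also a fibroblast gene, rose with NE in both lines (1.27 and 1.32). It was also higher in tSema4B than in vector cells, by 0.78 without NE and 0.84 with it. Macrophage markers were at 3 reads or fewer for 7 of 9 genes. Csf1r, the 1 tested, rose with NE by 2.43 in vector and 3.00 in tSema4B cells on the log2 scale. Leaving out any of 5 vector libraries, or tSema4B NE replicate 2 or 3, lost the call (adjusted p up to 0.137 and 0.0542). Macrophage sums were 3.36 to 7.60 and 0 to 5.48 in unstimulated vector and tSema4B libraries. After NE they were 13.4 to 23.6 and 9.65 to 24.6. Mural markers were led by Acta2 and Pdgfrb, which fibroblasts share. The summed mural level was 1519 to 1955 in unstimulated vector and 2353 to 2620.4 in unstimulated tSema4B libraries, and after NE 1207 to 1425 and 1439 to 2031. Of 6 mural markers tested, 1 was higher in tSema4B without NE (2 without vector unstimulated replicate 3) and 2 with NE, and NE lowered 2 in each line. The count for NE was 1 in vector cells without vector unstimulated replicate 1 or 3 or vector NE replicate 1 or 2. In tSema4B cells Pdgfrb lost its NE call without tSema4B NE replicate 1 or 2, and Acta2 without replicate 2 (adjusted p up to 0.0529 and 0.0583). Between the lines Pdgfrb was higher in tSema4B, by 0.90 without NE and 0.96 with NE. Of the 10 mural markers listed, Cspg4, Kcnj8, Abcc9 and Myh11 had at most 4, 11, 11 and 3 reads. Rgs5, Des and Mcam, also listed, were called in no comparison. Notch3 was the other mural marker higher in tSema4B after NE (1.13 on the log2 scale, SE 0.27, adjusted p = 0.00401).

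Receptor genes that were read are also made outside the endothelium. Flt1, which encodes VEGFR1, held 106, 132 and 79.5 normalised counts in unstimulated vector libraries and 195, 248 and 160 in unstimulated tSema4B libraries. After NE it held 80.0, 64.6 and 55.7 in vector and 121, 114 and 127 in tSema4B libraries. The tSema4B libraries were higher in each condition, by 0.92 on the log2 scale without NE (SE 0.21, adjusted p = 0.00451) and by 0.86 with it (SE 0.21, adjusted p = 0.00571). NE lowered Flt1 by 0.71 in tSema4B cells (adjusted p = 0.0477), a call lost without any 1 of 8 libraries (each but vector unstimulated replicates 2 and 3, vector NE replicate 1 and tSema4B unstimulated replicate 3), with adjusted p up to 0.190. Its NE difference in vector cells was -0.64 (adjusted p = 0.0513), which passed the test without vector unstimulated replicate 3, vector NE replicate 1 or tSema4B unstimulated replicate 2 or 3. Nrp1, a coreceptor for VEGF and for class 3 semaphorins, was at 565 ± 76.7 and 1042 ± 67.9 in the unstimulated lines (0.89 on the log2 scale, SE 0.12, adjusted p = 9.52e-06). After NE the difference was 0.87 (adjusted p = 1.05e-05). Nrp2, which binds VEGF-C, differed by -0.20 without NE (95% CI -0.52 to 0.11) and by 0.04 with it.

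**Figure D4:**
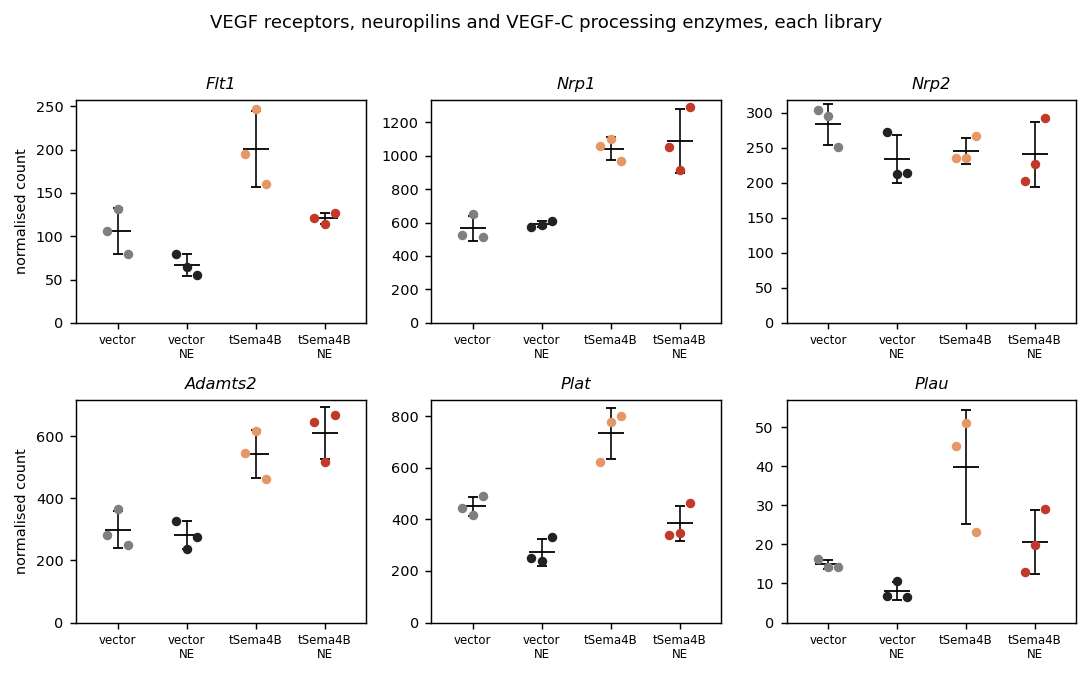
Normalised counts (linear axes from 0) of Flt1, Nrp1, Nrp2, Adamts2, Plat and Plau in each library, with the mean and SD of 3 libraries for each of the 4 groups. Flt1, Nrp1 and Adamts2 sit higher in both tSema4B groups, Nrp2 overlaps across all groups, and Plat is lower after NE in each line.

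The angiopoietins were highest in unstimulated vector cells. Angpt1, the activating Tie2 ligand (chromosome 15, 42424723 to 42676977, minus strand), shares 737 exon bases with Gm17473 on the other strand. Replicates 1, 2 and 3 gave 137, 166 and 195 normalised counts in unstimulated vector cells and 98.1, 45.6 and 74.6 after NE. In tSema4B cells they gave 81.0, 75.8 and 69.8 without NE and 61.1, 58.7 and 44.9 with NE. Unstimulated vector libraries lay above all 9 others. NE lowered Angpt1 in vector cells by 1.23 (SE 0.25, adjusted p = 0.00222), and tSema4B was lower than vector without NE with a difference of -1.11 on the log2 scale (SE 0.25, adjusted p = 0.00365). Both calls held in the alternatives run. After NE the lines differed by -0.35 (95% CI -0.86 to 0.17), and NE moved Angpt1 in tSema4B cells by -0.46 (adjusted p = 0.309). The NE responses of the lines differed by 0.77 (unadjusted p = 0.0402 in limma, adjusted p = 0.456).

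Angpt2, the context-dependent Tie2 ligand, lies on chromosome 8 from 18690263 to 18741562 (minus strand). Its unstimulated vector libraries held 86.9, 96.7 and 83.9 normalised counts and its vector NE libraries 36.3, 33.2 and 32.1. The tSema4B libraries held 36.9, 32.5 and 21.9 without NE and 23.6, 19.9 and 0 with NE. All 3 unstimulated vector libraries were far above the other 9, of which the highest was 36.9, and tSema4B NE replicate 3 had no read, where 3 reads would be 3.96 normalised counts. With that library in the model, the NE difference in vector cells was -1.37 (SE 0.72, adjusted p = 0.257) and the difference between unstimulated lines -1.55 (SE 0.72, adjusted p = 0.172). Without it the same differences had adjusted p of 0.00269 and 5.69e-04. A model of only the 6 libraries compared gave 2.41e-04 and 0.00138, and edgeR and DESeq2 on whole reads also called both. After NE, tSema4B was lower than vector, with a difference of -2.12 (SE 0.72, adjusted p = 0.0395), and this rested on the library with no read. Without it the difference was -0.62 (adjusted p = 0.195). The call was also lost with edgeR (-1.16, adjusted p = 0.0693), in a model of only the 6 libraries (adjusted p = 0.0987) and with no filter on low counts (adjusted p = 0.106). It was kept with DESeq2 (-1.17, adjusted p = 0.0288) and with a pseudocount of 10, which gave -1.02 (adjusted p = 0.0258). It did not hold without any of the 3 vector NE libraries (adjusted p 0.0864 to 0.0954) or without vector unstimulated replicate 2 (adjusted p = 0.0523). NE in tSema4B cells gave -1.94 (adjusted p = 0.118). Without tSema4B NE replicate 1 or 2 this passed the test (-2.75 and -2.63, adjusted p = 0.0245 and 0.0470), and without replicate 3 it was -0.44. The ratio of Angpt1 to Angpt2 normalised counts lay between 1.38 and 3.19 in the 11 libraries with Angpt2 reads, with overlap among groups.

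Jag1, a Notch ligand that guides vessel sprouting, was low in a single group. The gene lies on chromosome 2 from 137081456 to 137116644 (minus strand), and its upstream bases with the TGACG match are shown above. Normalised counts were 40.2, 51.3 and 44.7 in unstimulated vector cells and 44.3, 78.8 and 70.7 in vector cells given NE. They were 44.1, 37.1 and 49.3 in unstimulated tSema4B cells and 18.2, 20.8 and 13.2 in tSema4B cells given NE. The 3 tSema4B NE libraries lay below the other 9. In tSema4B cells NE lowered Jag1 by 1.29 on the log2 scale (SE 0.30, adjusted p = 0.0118), a call lost when only the 6 libraries of that line were fitted (adjusted p = 0.0987). After NE, tSema4B was lower than vector by 1.81 (SE 0.30, adjusted p = 1.72e-04), and this held in the alternatives run. In vector cells NE moved Jag1 by 0.47 (95% CI -0.17 to 1.10), and the unstimulated lines differed by -0.06 (95% CI -0.69 to 0.57). The difference between the lines in NE response was -1.75 (SE 0.43, unadjusted p = 5.27e-04 in limma), which did not pass adjustment over all genes (adjusted p = 0.137, and 0.0943 with edgeR).

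Of 18 other Notch genes listed, 10 were tested. The remaining ligands Jag2, Dll1, Dll3 and Dll4 were read at most 7, 2, 2 and 1 times. Notch1, Notch2 and Hey1, the last a target of Notch and BMP signals, were higher in tSema4B without NE, and Lfng, which modifies Notch receptors, was lower. Hey1 had 85.1 ± 13.7 normalised counts in unstimulated vector and 223 ± 52.3 in unstimulated tSema4B cells (1.36 on the log2 scale, SE 0.22, adjusted p = 1.11e-04). NE lowered Hey1 in tSema4B cells by 1.11 (adjusted p = 0.00236), and in vector cells its difference was -0.61 (adjusted p = 0.0732). After NE, Notch1, Notch3, Hey1 and Heyl were higher in tSema4B. These counts rested on few libraries. In place of 4, the count without NE was 1 without vector unstimulated replicate 1, 2 without its replicate 2 and 1 without tSema4B unstimulated replicate 3. Notch1 and Notch2 also lost their calls without vector unstimulated replicate 3, where the count was 3. The count with NE was 2 without tSema4B NE replicate 3. The Notch1 call with NE was lost in 11 of 24 alternatives, among them 6 left-out libraries (adjusted p up to 0.264).

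**Figure D5:**
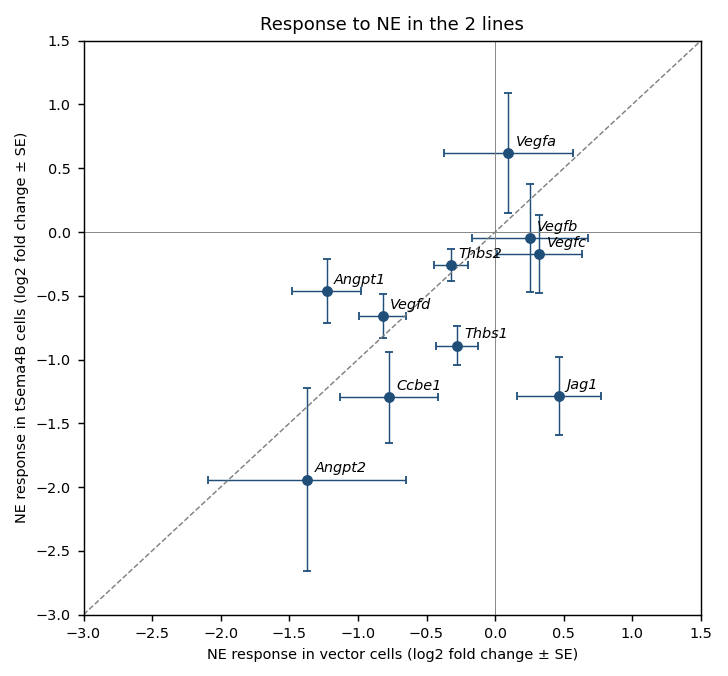
Log2 fold change with NE in vector cells (horizontal axis) against that in tSema4B cells (vertical axis), with SE bars from limma and a dashed line of equal response. Jag1 lies farthest below the line (0.47 and -1.29), Vegfd lies close to it (-0.82 and -0.66), and no member passed the test of the difference after adjustment.

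Thbs2 was called higher in tSema4B cells in both conditions and Thbs1 without NE. Thbs1 (chromosome 2, 118111876 to 118127133, plus strand) encodes thrombospondin-1, an inhibitor of angiogenesis that also activates TGF-β, and shares 208 exon bases with the antisense Gm29233. Its libraries 1, 2 and 3 held 517, 560.0 and 616 normalised counts in unstimulated vector cells and 639.7, 328 and 475 after NE. Unstimulated tSema4B cells held 1100.1, 1084 and 1038, and tSema4B cells given NE held 596, 620.2 and 523. The unstimulated tSema4B libraries lay far above the other 9, which overlapped. tSema4B exceeded vector by 0.93 without NE (SE 0.15, adjusted p = 1.83e-04), a ratio of means of 1.90, and NE lowered Thbs1 in tSema4B cells by 0.89 (SE 0.15, adjusted p = 7.15e-04). In vector cells the NE difference was -0.28 (adjusted p = 0.284) and after NE the lines differed by 0.32 (adjusted p = 0.155). Without vector NE replicate 1, the highest of its group, these became -0.51 (adjusted p = 0.0231) and 0.55 (adjusted p = 0.00768). The NE responses of the lines differed by -0.61 (unadjusted p = 0.0103 in limma, adjusted p = 0.319).

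Thbs2, whose product is a matrix inhibitor of angiogenesis bound by CD36 and CD47, lies on chromosome 17 from 14665500 to 14694235 (minus strand). The vector libraries held 1002, 1111 and 1107 normalised counts without NE and 1072, 756 and 777 with NE. The tSema4B libraries held 1365, 1759 and 1388 without NE and 1384, 1059 and 1325 with NE. Without NE the lines were apart, and with NE only tSema4B replicate 2 reached into the vector range. tSema4B exceeded vector by 0.48 on the log2 scale without NE (SE 0.13, adjusted p = 0.0131) and by 0.54 with NE (SE 0.13, adjusted p = 0.00367). The former call was lost without vector unstimulated replicate 1 (adjusted p = 0.0696) or tSema4B unstimulated replicate 2 (adjusted p = 0.0892). NE differences were -0.32 in vector (adjusted p = 0.109) and -0.26 in tSema4B cells (adjusted p = 0.257). The former passed without vector NE replicate 1 (-0.48, adjusted p = 0.0165) and with quantile normalisation (-0.41, adjusted p = 0.0293).

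Thrombospondin receptors and relatives moved in different directions between the lines. Of 9 tested, 5 were higher and 1 was lower in tSema4B in each condition. Cd36, a thrombospondin receptor that is also the fatty acid transporter of adipocytes and one of the brown adipocyte markers above, was at 8943 in unstimulated vector and 1564 in unstimulated tSema4B cells (-2.50 on the log2 scale, SE 0.10). Cd47, Itgav, Itgb1 and Lrp1 were higher in both conditions, by 0.42 to 0.68 on the log2 scale. Thbs3 was read at most 26 times, Comp 3 times, and Thbs4 had no read.

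Of 18 other secreted proteins that limit vessel growth tested, 7 were higher in tSema4B without NE and 8 with NE, and none was lower in either. The other 11 and 10 did not pass the test. The 18 genes had a median difference of 0.65 without NE and 0.62 with it on the log2 scale, beside -0.00 and -0.01 over all genes. Sema3a, a class 3 semaphorin that binds neuropilin-1, had the largest difference among those called, 2886 against 6669 normalised counts without NE (1.20 on the log2 scale, SE 0.09) and 1.62 with NE. Dcn (decorin) differed by 1.00, Col18a1, the collagen that yields endostatin, by 0.97 and Adamts1 by 0.77 without NE. NE lowered 5 of the 18 in each line and raised none. Adamts1 fell by 1.06 in vector and 0.93 in tSema4B cells, Timp3 by 1.00 and 0.68, Timp2 by 0.59 and 0.58 and Col18a1 by 0.49 and 0.50. The Col18a1 calls were the least firm, lost without any 1 of 4 libraries for vector and 3 for tSema4B cells. Sema3a fell by 0.69 in vector cells, beside -0.27 in tSema4B cells (adjusted p = 0.0925), and the responses did not differ past the test (interaction 0.42, adjusted p = 0.255). Angptl1, read at most 19 times, fell in tSema4B cells from 17.7 ± 4.27 to 1.62 ± 1.95 normalised counts. Many of these proteins are products of fibroblasts and preadipocytes, whose markers were also higher in tSema4B, with summed levels of 32157 to 36353 against 17708 to 18614 in unstimulated vector libraries.

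Secreted proteins that favour vessel growth were mixed. Of 20 tested, 4 were higher and 1 lower in tSema4B without NE, and 5 and 1 with NE. Igf1 and Ptn (pleiotrophin) were higher in both conditions, Igf1 by 1.78 (SE 0.16) and 2.27, and Ptn by 0.74 and 1.04. Pdgfd, read at most 39 times, was higher with NE by 1.91 (SE 0.51, adjusted p = 0.00936). It held 6.67 ± 2.00 normalised counts in vector and 27.3 ± 1.44 in tSema4B cells given NE. Hbegf and Cyr61 were higher without NE (1.77 and 0.72), Hbegf losing its call without vector unstimulated replicate 3 or tSema4B unstimulated replicate 1 or 2 (adjusted p up to 0.0756). Angptl4, a lipase inhibitor that fat cells make, was lower by 1.85 without NE and 2.37 with NE. NE raised 4 and lowered 3 of the 20 in vector cells and raised 2 and lowered 4 in tSema4B cells. Il6 rose from 1.82 ± 3.14 to 29.4 ± 10.3 normalised counts in vector cells and from 2.62 ± 2.75 to 21.2 ± 1.10 in tSema4B cells, though the tSema4B call was lost without tSema4B unstimulated replicate 2 or tSema4B NE replicate 2 or 3 (adjusted p up to 0.0952). Apln, which encodes apelin, rose by 1.38 and 1.46. The Apln calls were lost without any 1 of 3 libraries for vector and 4 for tSema4B cells. Igf1 fell by 2.13 and 1.63, the largest fall among those called in each line. The count for NE in tSema4B cells was 2 or 3 in place of 6 without unstimulated replicate 3 or NE replicate 2. Without tSema4B NE replicate 3 the Apln, Angptl4 and Il6 calls were lost.

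For each of the 10 genes, the genes with the most similar profile over the 12 libraries were found by Pearson's r on log2 values, as a description without a test. The libraries share line and stimulus, which raise such values. Vegfc was closest to Pdia5 (r = 0.95), Ccbe1 to Nrep (0.94), Vegfd to Tns3 (0.95) and the basement membrane gene Hspg2 (0.95). Thbs1 was closest to Plk2 (0.96) and Nr2f2 (0.94), and Thbs2 to Fkbp9 (0.95) and Col16a1 (0.94). Angpt1 was closest to Setd2 (0.89), Angpt2 to Zfp764 (0.95) and Jag1 to the histone gene Hist1h4d (0.93). Vegfa and Vegfb were closest to Wdr83 (0.93) and Gps1 (0.87). Among the members themselves r was 0.82 for Thbs1 and Thbs2, 0.76 for Vegfc and Ccbe1 and 0.72 for Angpt1 and Angpt2, and 0.15 for Vegfc and Vegfd.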

How the data were processed

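RNA was converted to cDNA by SMART-Seq2 and sequenced as single-end Nextera XT libraries. The authors aligned the reads with STAR 2.7.9a to mm10 (GRCm38.p4), counted them with htseq-count and divided each library by its DESeq2 size factor, so the deposited signal is a normalised read count per gene. The gene annotation and the strand setting are not given in the sources used here. In each library 100% of non-zero values were whole multiples of 1 read (tolerance 0.01), and whole reads were recovered from them. The value of 1 read lay between 0.593 and 1.55 normalised counts.

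Log2(normalised count + 1) of the 11998 genes with at least 10 normalised counts in at least 3 libraries was fitted with limma 3.58.1 (R 4.3.3), with a variance trend and 1 model of the 4 groups. All tests were two-sided. P-values were adjusted over the 11998 genes by Benjamini-Hochberg, with 0.05 as the highest adjusted p of a call. An exact permutation test of 3 against 3 libraries cannot go below 0.1. Libraries of a group differed beyond counting noise (chi-square per degree of freedom 3.56 to 5.79). Same-numbered libraries did not deviate together (correlations -0.047 to 0.028, 18 pairs), so numbers were not used as pairs. Floors of 3 reads cover counting error only. The method was tested on simulated data.

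The members and the gene lists were chosen with earlier results of these data known. All 10 members are named whatever their values. From each list the text names receptors, VEGF-C enzymes and defining cell markers, and up to 4 called genes with the largest fold change in the comparison described, without all their statistics. Other genes are named for a stated reason. Genes most like a member were the 3 with the highest Pearson's r, of which some are named.

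Alternatives were other pseudocounts, filters, scalings and thresholds, thinned reads, only the 6 libraries compared, a replicate block, edgeR 4.0.16 and DESeq2 1.42.0 on whole reads, and each library left out. Positions and exon lengths are from GENCODE on GRCm38, and promoter bases are from RefSeq (GRCm38.p6).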

Additional observations from a re-analysis of the deposited data

Results flagged for a closer look

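Among the genes of the lists, 2 differed between the lines in their response to NE by the interaction test of limma. Bnip3, a hypoxia-responsive gene of mitophagy, had an interaction log2 fold change of 1.16 (adjusted p = 0.0371), with an NE difference of 0.28 in vector cells and 1.43 in tSema4B cells. This call was lost in 11 of 23 alternatives, with no filter on low counts (adjusted p = 0.194) and without any 1 of 10 of the 12 libraries (adjusted p up to 0.124). It held without tSema4B unstimulated replicate 2 or tSema4B NE replicate 1. Lpl, lipoprotein lipase and a brown adipocyte marker, had an interaction of 0.817 (adjusted p = 0.00399), with NE differences of 0.21 and 1.03. It was lost in 1 of 23 alternatives, with no filter (adjusted p = 0.139), and held without each library (adjusted p up to 0.0389).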

How the results depend on the processing

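Where a call also needed a difference of 1 or more on the log2 scale, Vegfd lost its calls for NE in both lines. Thbs1 lost both of its calls, Thbs2 both of its calls between the lines, and Vegfc its call after NE. The other calls of the members were kept. Leaving out a library gave 2 to 4 called members for NE in vector cells (4 without vector NE replicate 1), and 2 to 4 for NE in tSema4B cells (2 without unstimulated replicate 2 or 3). For the lines it gave 4 to 6 without NE and 3 to 5 with NE (3 without vector NE replicate 2 or 3 or tSema4B NE replicate 3). Only the 6 libraries compared gave 2 for NE in tSema4B cells, and no filter gave 3 for the lines after NE. The count for the interaction was 0 in the alternatives run, though DESeq2 gave an adjusted p for only 3 of the 10 members there (Vegfd, Thbs1 and Thbs2). A replicate block gave 2, 4, 5 and 4 called members in the order NE in vector, NE in tSema4B, lines without NE and lines with NE (Vegfc after NE was lost, adjusted p = 0.0523) and changed no other member's call.

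The sign of a member's difference changed only where it was not called. Vegfb for NE in tSema4B cells was 0.0101 with quantile normalisation, 0.0222 with edgeR, 0.0140 with DESeq2 and -0.479 to 0.210 without a library. The Thbs2 interaction was -0.0136 with thinned reads and -0.0274 to 0.224 without a library. The Angpt2 interaction was 0.288 with a pseudocount of 10, 0.394 with edgeR, 0.378 with DESeq2 and -1.38 to 0.929 without a library. Leaving out a library gave -0.102 to 0.273 for Vegfa with NE in vector cells and -0.972 to 0.0221 for Vegfa between the lines after NE. Between unstimulated lines it gave -0.478 to 0.0992 for Vegfb and -0.154 to 0.0452 for Jag1. The cause was not tested. The members with the fewest reads in any library were Angpt2 (0 to 115 reads per library), Vegfa (5 to 48), Vegfb (8 to 66), Jag1 (10 to 133), Vegfc (18 to 54) and Ccbe1 (18 to 128).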
